A study of Mus musculus with 4 samples.

Results

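The proteasome subunit genes are described here in mouse embryonic stem cells (mESC) with and without induced loss of Ogt. Members were all gene symbols made of Psma, Psmb, Psmc or Psmd and a number, which gave 39 of the 25239 genes in the count tables. They comprised 8 genes of the 20S alpha ring, 8 of the 20S beta ring, 3 immunoproteasome genes, 6 ATPases of the 19S particle, 3 other genes of the 19S base, 8 genes of the 19S lid and 3 genes that carry subunit names but encode assembly chaperones of the 19S base. All 4 libraries came from mESC of the genotype Ogt fl/fl, grown on mitomycin C-treated mouse embryonic fibroblasts with LIF and serum replacement. The Ogt iKO group (n = 2) was cultured for 6 days with 4-OHT (4-hydroxytamoxifen, which activates oestrogen receptor-fused recombinases), and the control group (n = 2) without it. Viable cells were sorted away from the feeders with antibodies to CD90.2 and CD326, and YFP+ cells were selected, as described, in the 4-OHT-treated group alone. No library of 4-OHT-treated cells with an intact Ogt is among the samples. Loss of Ogt, 4-OHT itself and the YFP+ selection therefore cannot be told apart. The labels do not say how many clones the cells represent or whether the libraries of a group came from separate cultures, so p-values measure the spread between these libraries, which may be technical.

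The 26S proteasome degrades proteins tagged with ubiquitin. Its 20S core is a barrel of alpha rings, which form the gate, and beta rings, which hold the catalytic sites of Psmb5 (chymotrypsin-like), Psmb6 (caspase-like) and Psmb7 (trypsin-like). The 19S regulatory particle caps the core: its base of ATPases unfolds substrates, and its lid removes ubiquitin chains. Cells exposed to interferon, and many immune cells, make Psmb8, Psmb9 and Psmb10, which replace Psmb5, Psmb6 and Psmb7 in newly assembled cores, and such immunoproteasomes generate many of the peptides shown on MHC class I. OGT, the enzyme encoded by Ogt, attaches O-GlcNAc to proteins, including 19S subunits and NFE2L1, a transcription factor known for raising proteasome gene expression when proteasome activity is low.

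The libraries held 14668489 to 16504204 counts, and 3 counts, the most that a count of 0 allows, correspond to 0.182 to 0.205 counts per 1000000 of these plain totals. Counts per 1000000 (CPM) below are on TMM-scaled library sizes, where TMM is edgeR's scaling of libraries to each other. Ogt was at 25.6 and 25.1 CPM in the Ogt iKO libraries and at 191 and 203 CPM in the controls, a change of -2.96 on the log2 scale (SE 0.068, adjusted p = 2.49e-07, edgeR quasi-likelihood test), as the labels would have it. The defining markers of mESC were present in every library, with Pou5f1 at 490 and 575 CPM in Ogt iKO and 894 and 850 CPM in control. Of the 16 markers of the list 14 fell (87.5%) and 1 rose (6.25%), beside 32.0% and 33.2% of all genes tested. The sum of the list went from 5984 and 5950 CPM in control to 3428 and 3840 CPM in Ogt iKO, in the same direction as most proteasome genes. Markers of 2-cell-like cells, a rare state in such cultures, rose in 8 of 8 tested cases (100%, beside 33.2% of all genes). They summed to 122 and 134 CPM in Ogt iKO and 27.9 and 17.7 CPM in control. Genes such as Spz1 (3 and 1 counts in control), Zfp352 (8 and 6) and Tcstv3 (8 and 5) passed the low-count filter only through the Ogt iKO libraries. Their rise was therefore bound up with their being tested. The part of these shifts in the results below was not tested. Fibroblast markers summed to 4672 CPM in Ogt iKO replicate 1, against 1946 CPM in Ogt iKO replicate 2 and 2690 and 2983 CPM in the controls, so that 1 Ogt iKO library stands apart. Of the 22 markers 4 rose (18.2%) and 1 fell (4.5%), beside 33.2% and 32.0% of all genes. The spread between the Ogt iKO libraries limits such calls, with Col1a1 at 904 and 179.5 CPM there (SE of the log2 fold change 0.545). Of the genes behind the antibodies of the sort, Epcam (CD326) was at 280 and 287 CPM in Ogt iKO and 347 and 307 CPM in control, and Thy1 (CD90) at 25.6 and 8.90 CPM and 15.6 and 15.7 CPM. The labels give CD90.2 as the mark of mESC and CD326 as that of feeders to be removed, the reverse of how these proteins are usually used, so the values are no check of the sort.

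Most proteasome subunit genes were lower in Ogt iKO, by modest amounts, and the 3 immunoproteasome genes were higher. Of the 38 members tested, 28 fell and 4 rose at an adjusted p under 0.05 (edgeR quasi-likelihood test, adjusted over the 14525 genes tested), and 6 did not pass. Among all genes tested 32.0% were called lower and 33.2% higher, against 73.7% and 10.5% of the tested members. The median log2 fold change of the members was -0.30, beside 0.02 over all genes tested. In 29 members both Ogt iKO libraries lay below both controls, which held for 40.9% of all genes, and in 5 both lay above, which held for 42.3%. Psmb11, the thymus-specific catalytic subunit, was not tested, as it had 0 and 1 counts in Ogt iKO and 2 and 1 counts in control.

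The number of calls depended on how the libraries were scaled. With libraries scaled by their totals alone, the median of all genes moved to 0.19 on the log2 scale, 22.6% of all genes were called lower and 42.1% higher, and the members gave 17 lower and 8 higher with a median of -0.13. The median of the members minus that of all genes was thus -0.33 under either scaling. The 17 members that were lower there were lower in all 13 alternative settings tried, as Psmb8, Psmb9, Psmb10 and Psmd9 were higher in all 13. Those 17 were Psma1, Psma2, Psma5, Psma6 and Psma7 of the alpha ring, Psmb3 of the beta ring, the ATPases Psmc1, Psmc3 and Psmc6, the base genes Psmd1 and Psmd4, the lid genes Psmd6, Psmd7, Psmd12, Psmd13 and Psmd14, and the chaperone Psmd10. The other 11 members that fell were no longer called with library totals, and Psmd11 among them changed sign.

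**Figure D1:**
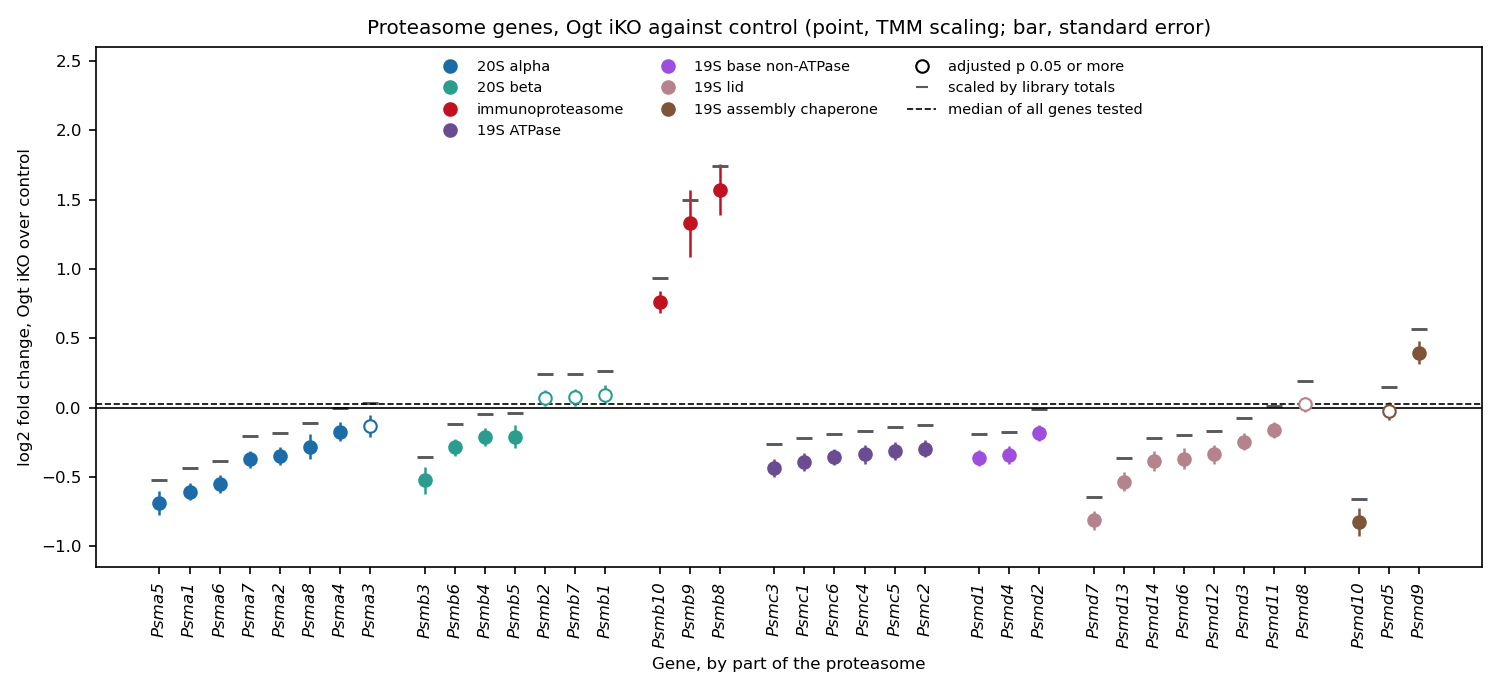
Log2 fold change, Ogt iKO against control, of the 38 tested proteasome subunit genes by group (points, TMM scaling; bars, 1 SE; open points, adjusted p of 0.05 or more; grey dashes, the same gene with libraries scaled by totals alone; dashed line, median of all genes tested). Psmb8, Psmb9 and Psmb10 lie between 0.76 and 1.57, while the lowest points are Psmd10 at -0.83 and Psmd7 at -0.81.

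Summed over all members, proteasome RNA was at 7525 and 7879 CPM in Ogt iKO and at 9730 and 9062 CPM in control, so that the mean of the Ogt iKO libraries was 82.0% of the control mean. As a plain share of counts the members took 0.799% and 0.833% in Ogt iKO and 0.912% and 0.859% in control, and the libraries of the groups did not overlap on either scale. The groups of subunits differed in how far their sums were from control. The alpha ring stood at 74.7% of control, the lid at 78.0%, the ATPases at 78.2% and the other base genes at 82.0%. The beta ring stood at 94.1%, with Ogt iKO replicate 2 (1642 CPM) above control replicate 2 (1636 CPM), and the chaperones at 99.5%. All counts together stood at 89.0% on this CPM scale, because TMM scaling treats the libraries as differing in composition. As a share of counts, with no such scaling, the alpha ring stood at 84% of control, the lid at 87.7%, the ATPases at 87.9%, the base at 92.1% and the immunoproteasome genes at 211%. On that scale the beta ring (106%) and the chaperones (112%) lay above control instead of below. The immunoproteasome genes together stood at 187%, from 43.1 and 39.5 CPM in control to 76.6 and 78.3 CPM in Ogt iKO. In bulk RNA, fewer cells of a type and less RNA per cell cannot be told apart.

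**Figure D2:**
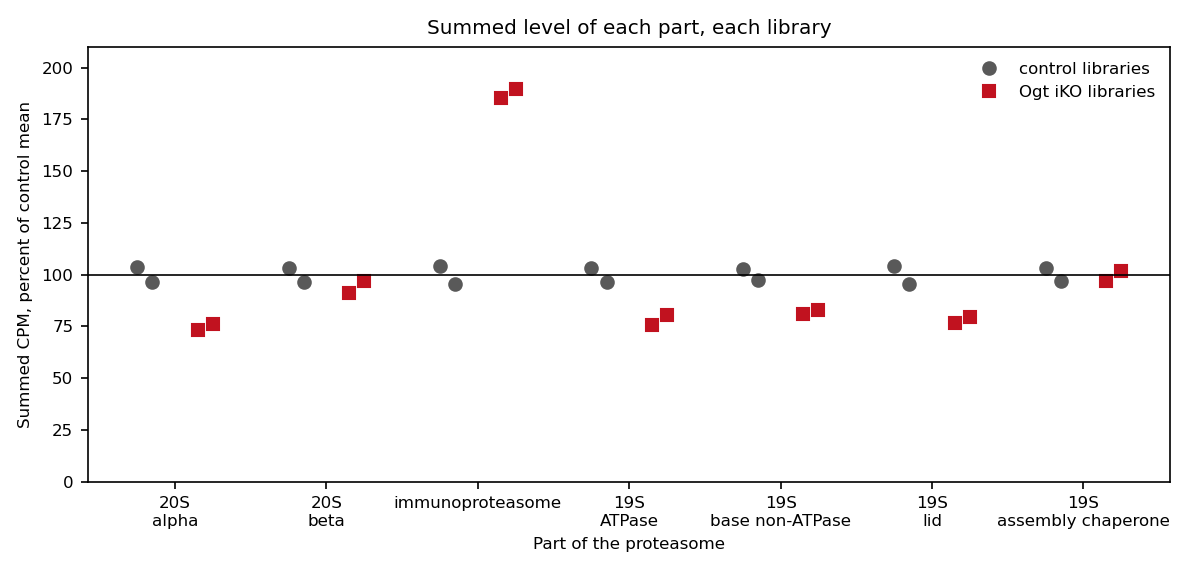
Summed CPM of each proteasome group in each library, as a percentage of the mean of the 2 control libraries (axis from 0). The alpha ring, ATPases, base and lid lie below control in both Ogt iKO libraries, the beta ring and chaperones overlap control, and the immunoproteasome genes lie near 187% of control.

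Ratios of raw counts within a library do not depend on how libraries are scaled to each other. They were formed after the values above had been seen. Counts of alpha ring genes were 76.5% and 75.1% of those of beta ring genes in Ogt iKO, and 95.6% and 95.2% in control, a fold of 0.795 between the groups. This gap between groups exceeded the spread within them (SD 0.962 in Ogt iKO and 0.245 in control, percentage points, n = 2 each). The exact two-sided permutation test gave p = 0.33, the smallest that 2 libraries against 2 allow, as for every other ratio given here. Counts of all 19S genes, the 3 chaperones included, were 172.3% ± 1.52 (SD, n = 2) of those of 20S alpha and beta genes in Ogt iKO and 182.7% ± 0.112 in control, a smaller shift of 0.943-fold.

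In the alpha ring, whose subunits form the gate of the core, 7 of 8 genes fell and none rose, and the median was -0.36 on the log2 scale (-0.19 with library totals). Psma5 was at 32.2 and 30.4 CPM in Ogt iKO and at 53.0 and 47.9 CPM in control, a change of -0.69 on the log2 scale (SE 0.087, adjusted p = 0.000178). Psma1 was at 190 and 201 CPM in Ogt iKO and at 307 and 287 CPM in control, a change of -0.60 on the log2 scale (SE 0.062, adjusted p = 5.84e-05). For both genes the Ogt iKO libraries lay well under the lower control, with leave-one-out values from -0.77 to -0.62 for Psma5 and from -0.67 to -0.56 for Psma1. Psma6, at 235 and 254 CPM in Ogt iKO against 370 and 348 CPM in control, fell by 0.55 on the log2 scale, and Psma7 and Psma2 fell by 0.37 and 0.35. Psma4 was at 177 and 167 CPM in Ogt iKO and at 204 and 184 CPM in control, a log2 fold change of -0.17 (adjusted p = 0.0473) that was -0.004 with library totals and was not called without control replicate 1 or without Ogt iKO replicate 2 (adjusted p = 0.268 and 0.0849). The Psma4 call was also lost with upper-quartile scaling, no filter and the filter of 1 CPM (adjusted p from 0.0537 to 0.111). Psma3 was at 44.4 and 47.2 CPM in Ogt iKO and at 49.8 and 50.7 CPM in control, a log2 fold change of -0.13 that did not pass (adjusted p = 0.158). These last members sit at the small end of the ring, with controls only slightly above Ogt iKO. Much of Psma5 is sequence also found elsewhere: 55.4% of the 50-base words of its longest coding transcript occur in transcripts of other genes, as do 31.5% for Psma4 and 22.0% for Psma3, so their counts are uncertain.

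Psma8 encodes the alternative alpha subunit of spermatogenic cells, in which it takes the place of Psma7. It was at 28.3 and 29.1 CPM in Ogt iKO and at 36.8 and 32.9 CPM in control, with 451 to 570 counts per library, and fell by 0.28 on the log2 scale (SE 0.089, adjusted p = 0.0219). The call was lost with library totals, without control replicate 1, without Ogt iKO replicate 1 and with DESeq2. Its counts were 10.2% and 9.88% of those of Psma7 in Ogt iKO and 9.61% and 9.21% in control, a fold of 1.07. None of the 50-base words of Psma8 occurs in a transcript of another gene, Psma7 included. Of the list of spermatogenic markers, Prm1 and Tnp1, which mark late spermatids, had 0 counts in all libraries. Of the 9 tested 4 rose (44.4%) and 3 fell (33.3%), beside 33.2% and 32.0% of all genes. The fall of Ddx4 was not called with library totals, without Ogt iKO replicate 1 or without control replicate 1, nor the rise of Hormad1 without control replicate 2. The sum of the list was 1090 and 1011 CPM in Ogt iKO and 433 and 385 CPM in control. The list went both ways, with a median log2 fold change of 0.03: Dazl, Stra8 and Sycp1 rose, while Sycp3 and Hormad2 fell.

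In the beta ring, whose sum lay nearer to control, 4 of the 7 tested genes fell and 3 did not pass, with a median log2 fold change of -0.21 (-0.04 with library totals). Psmb3, a structural subunit, was at 34.8 and 40.0 CPM in Ogt iKO and at 56.4 and 51.0 CPM in control, a change of -0.52 on the log2 scale (SE 0.096, adjusted p = 0.00145). Psmb6, the caspase-like catalytic subunit, was at 323 and 342 CPM in Ogt iKO and at 421 and 391 CPM in control, a change of -0.29 on the log2 scale (SE 0.063, adjusted p = 0.00375). Psmb5, the chymotrypsin-like subunit, was at 47.1 and 52.3 CPM in Ogt iKO and at 58.5 and 56.4 CPM in control, a log2 fold change of -0.21 at the edge of the threshold (adjusted p = 0.0492). The call of Psmb5 was lost with upper-quartile scaling, DESeq2, no filter, the filter of 1 CPM and in 3 of the 4 fits without a library, all but the one without Ogt iKO replicate 2. Psmb3 kept its call with library totals, but Psmb4, Psmb5 and Psmb6 did not, and Psmb4 (log2 fold change -0.21) was not called without control replicate 1 (adjusted p = 0.137).

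Psmb7, the trypsin-like subunit, was at 316 and 337 CPM in Ogt iKO and at 317 and 303 CPM in control, a log2 fold change of 0.07 (adjusted p = 0.303). Psmb1 was at 291 and 317 CPM in Ogt iKO and at 297 and 273 CPM in control, a log2 fold change of 0.09 (adjusted p = 0.245). The groups overlapped for both genes. Psmb2 was at 226 and 236 CPM in Ogt iKO and at 222 and 218 CPM in control, without overlap but by only 0.07 on the log2 scale (adjusted p = 0.297). With library totals these 3 structural and catalytic beta genes, together with Psmd8 of the lid, were called higher, at 0.24 for Psmb7, 0.26 for Psmb1 and 0.24 for Psmb2. Under either scaling they lay above the other beta ring genes. Sequence shared with transcripts of other genes came to 57.1% of the words of Psmb5, 55.8% of Psmb3 and 28.1% of Psmb7, and none of Psmb2 and Psmb4.

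All 3 immunoproteasome genes rose. Psmb8, the inducible counterpart of Psmb5, was at 11.7 and 12.4 CPM in Ogt iKO and at 4.59 and 3.52 CPM in control, a change of 1.57 on the log2 scale (SE 0.185, adjusted p = 0.000121). Psmb9, the counterpart of Psmb6, was at 6.20 and 7.03 CPM in Ogt iKO and at 3.17 and 2.09 CPM in control, a change of 1.33 on the log2 scale (SE 0.241, adjusted p = 0.00136). Psmb10, the counterpart of Psmb7, was at 58.7 and 58.8 CPM in Ogt iKO and at 35.3 and 33.9 CPM in control, a change of 0.76 on the log2 scale (SE 0.076, adjusted p = 5.20e-05). The groups did not overlap for any of them. Psmb9 rests on the fewest reads, 106 and 109 counts in Ogt iKO and 49 and 32 counts in control, and its value without one library at a time ran from 1.05 to 1.65. Psmb8 had 193 to 200 counts in Ogt iKO and 54 to 71 in control, and Psmb10 had 912 to 1003 and 520 to 547.

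Levels per length set these rises against the constitutive partners. Counted per kilobase of exon, Psmb8 was at 1.199 ± 0.223 CPM per kb (mean ± SD, n = 2) in control, against 63.9 ± 1.69 for Psmb5. Psmb9 was at 0.718 ± 0.209 CPM per kb in control, against 216.7 ± 11.3 for Psmb6. Psmb10 stood out among the inducible genes, at 20.3 ± 0.598 CPM per kb in control, against 90.7 ± 2.87 for Psmb7. As a ratio per length within a library, Psmb8 was 6.61% and 6.33% of Psmb5 in Ogt iKO and 2.08% and 1.66% in control, a 3.48-fold change of the ratio. Psmb9 was 0.983% and 1.05% of Psmb6 in Ogt iKO and 0.385% and 0.273% in control, a 3.13-fold change. Psmb10 was 37.3% and 35.0% of Psmb7 in Ogt iKO and 22.4% and 22.4% in control, a 1.61-fold change. All 3 ratios were separated between the groups, and in both groups the RNA of the constitutive partner was the more abundant one of each pair.

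**Figure D3:**
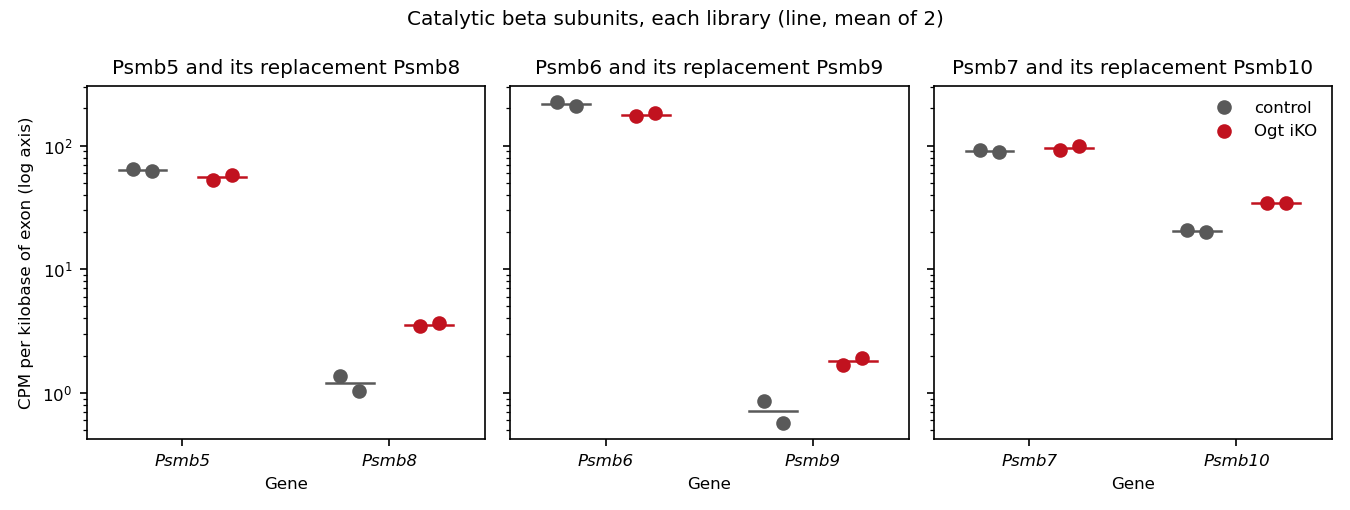
CPM per kilobase of exon (log axis) of each constitutive catalytic gene and its inducible counterpart in each library. Every inducible gene lies below its partner in all 4 libraries, and Psmb8, Psmb9 and Psmb10 are higher in both Ogt iKO libraries than in both controls.

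Blood cell markers went both ways. The 8 markers of the list summed to 143 and 90.1 CPM in Ogt iKO and 97.4 and 76.0 CPM in control, so that the groups overlapped. Laptm5 alone made up 59.3 and 58.4 CPM of the control sums, and 31.1 and 28.0 CPM of the Ogt iKO sums. Of the 7 tested 4 rose (57.1%) and 2 fell (28.6%), beside 33.2% and 32.0% of all genes. Those that rose were Ptprc, Lyz2, Cd74 and Tyrobp, the last at 3.92 and 1.74 CPM in Ogt iKO and 1.10 and 0.456 CPM in control. Ptprc (CD45), which defines white blood cells, was at 3.92 and 2.32 CPM in Ogt iKO and 0.646 and 0.261 CPM in control, and Lyz2, a macrophage and granulocyte gene, at 90.2 and 41.8 CPM against 20.4 and 3.33 CPM. Laptm5 and Coro1a, which are widely expressed in blood cells, fell by 0.99 and 1.03 on the log2 scale, and Cd3e, a T cell gene, was at 0.819 and 1.42 CPM against 2.39 and 1.499 CPM (adjusted p = 0.0903). Cd74, a gene of antigen-presenting cells, was at 8.72 and 10.9 CPM in Ogt iKO and 4.39 and 3.85 CPM in control. The part of such cells in the result was not tested. Psmb8 and Psmb9 overlap neighbours, with 14.7% of the exon length of Psmb8 under an exon of Gm20496 on the opposite strand and 5.79% of that of Psmb9 under Tap1, and 12.5% of the words of Psmb9 occur in Tap1 transcripts. Tap1 rose as well, by 1.74 on the log2 scale, and the strand that was counted is not given in the sources used here. Psmb10 shares no words and lies under no other gene.

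All 6 ATPases, which form the unfolding ring of the 19S base, fell within a narrow band from -0.43 to -0.30 on the log2 scale, with a median of -0.35 (-0.18 with library totals). Psmc3 was at 283 and 307 CPM in Ogt iKO and at 410 and 386 CPM in control, a change of -0.43 on the log2 scale (SE 0.064, adjusted p = 0.000436). Psmc1 was at 266 and 277 CPM in Ogt iKO and at 371 and 341 CPM in control, a change of -0.39 on the log2 scale (SE 0.063, adjusted p = 0.00070). At the small end, Psmc5 was at 304 and 329 CPM against 403 and 383 CPM in control (log2 fold change -0.31) and Psmc2 at 254 and 271 CPM against 332 and 313 CPM (log2 fold change -0.30). In each of the 6 genes both Ogt iKO libraries lay below both controls. Psmc2, Psmc4 and Psmc5 were not called with library totals, at -0.13, -0.17 and -0.14 on the log2 scale.

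The 3 other genes of the base fell too. Psmd1, a large scaffold subunit, was at 470 and 476 CPM in Ogt iKO and at 629 and 586 CPM in control, a change of -0.36 on the log2 scale (SE 0.059, adjusted p = 0.000773). Psmd4, a receptor for ubiquitin chains, was at 223 and 244 CPM in Ogt iKO and at 304 and 288 CPM in control, a change of -0.34 on the log2 scale (SE 0.065, adjusted p = 0.00171). Psmd2, the other large scaffold, was at 497 and 492 CPM in Ogt iKO and at 572 and 550 CPM in control, a log2 fold change of -0.18 (adjusted p = 0.0181) that was -0.01 and not called with library totals, nor called without control replicate 1 (adjusted p = 0.0994) or with upper-quartile scaling (adjusted p = 0.0524). Psmd2 shares 26.4% of its words with transcripts of other genes.

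In the lid, 7 of 8 genes fell, the median being -0.35 on the log2 scale (-0.18 with library totals), and the spread among its members was the widest of the structural groups. Psmd7, the partner that holds the deubiquitinase Psmd14 in place, was at 213 and 226 CPM in Ogt iKO and at 404 and 366 CPM in control. Its log2 fold change was -0.81 (SE 0.068, adjusted p = 1.99e-05), with leave-one-out values from -0.89 to -0.75. Psmd14, which cuts ubiquitin chains from substrates, was at 180 CPM in both Ogt iKO libraries and at 251 and 219.5 CPM in control, a change of -0.39 on the log2 scale (SE 0.071, adjusted p = 0.0015). The counts of Psmd7 were thus 118% and 125.5% of those of Psmd14 in Ogt iKO and 161% and 167% in control, a fold of 0.743 for this pair of partners.

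Psmd13, another lid scaffold, was at 185 and 190 CPM in Ogt iKO and at 288 and 256 CPM in control, a change of -0.54 on the log2 scale (SE 0.068, adjusted p = 0.00019). It overlaps Sirt3 on the opposite strand over 10.1% of its exon length and shares 15.8% of its words. Psmd6, Psmd12 and Psmd3 fell by 0.37, 0.34 and 0.25 on the log2 scale, Psmd3 not being called without control replicate 1 (adjusted p = 0.0552) or with library totals. Psmd11 was at 157 and 163 CPM in Ogt iKO and at 181 and 178 CPM in control, a log2 fold change of -0.16 (adjusted p = 0.032) that became 0.008 with library totals. The Psmd11 call was lost with upper-quartile scaling (adjusted p = 0.0951), with the replicate block (adjusted p = 0.0517) and in 3 of the 4 fits without a library, all but the one without Ogt iKO replicate 2. Psmd8 was at 279 and 273 CPM in Ogt iKO and at 276 and 267 CPM in control, a log2 fold change of 0.03 (adjusted p = 0.705), with overlapping groups. Relative to Psmd8, the counts of Psmd7 were 76.2% and 82.8% in Ogt iKO and 147% and 137% in control, a fold of 0.56 between genes of the same lid.

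The 3 assembly chaperones of the 19S base went 3 ways, with a median log2 fold change of -0.02. The sign of the median changed with library totals (0.15) and upper-quartile scaling (0.02). It also changed without Ogt iKO replicate 1 (0.03) and without control replicate 1 (0.009). The chaperones bind the ATPases while the ring is built and leave the finished particle. Psmd10 (gankyrin), also known as a protein overexpressed in liver cancer, was at 16.9 and 15.7 CPM in Ogt iKO and at 29.98 and 28.0 CPM in control. Its change of -0.83 on the log2 scale (SE 0.101, adjusted p = 0.00015) lay beside that of Psmd7 (-0.81), and both were lower than those of all other members. Psmd9 was at 56.2 and 59.3 CPM in Ogt iKO and at 46.0 and 41.7 CPM in control, a change of 0.40 on the log2 scale (SE 0.083, adjusted p = 0.00297). Psmd9 was the 1 member outside the immunoproteasome that rose with TMM scaling, but 25.5% of its exon length lies under exons of Gm26745 on the opposite strand. Psmd5 was at 135 and 144 CPM in Ogt iKO and at 145 and 138 CPM in control, a log2 fold change of -0.02 (adjusted p = 0.755). Counts of Psmd10 were 30.1% and 26.6% of those of Psmd9 in Ogt iKO and 65.2% and 67.1% in control, a fold of 0.427.

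Per length, the members spanned a wide range in control cells. Psma6 was the highest at 290.7 ± 12.5 CPM per kb (mean ± SD, n = 2), followed by Psmc5 at 281.9 ± 10.5, which did not differ beyond that spread. Psmb6 came next at 216.7 ± 11.3, below both. The next places, from Psmb4 at 185.4 ± 13.3 to Psmc4 at 169.4 ± 12.3, held neighbours whose ranges of mean ± SD overlapped. At the low end among genes for constitutive subunits stood Psma3 at 12.9 ± 0.176 CPM per kb and Psmb3 at 23.4 ± 1.67. Psma3 did not differ beyond the spread from Psma8, at 14.0 ± 1.13 CPM per kb. The subunits encoded by Psma3 and Psmb3 are each present as often in the core as those of Psma6 and Psmb6. Among the members with over 50% shared words, Psmb3, Psma5 and Psmb5 ranked 30, 28 and 26 of 39. How reads that match several genes were counted is not given in the sources used here, and exon lengths are unions over annotated transcripts, so these levels are uncertain for genes with copies. Without the 13 members that share over 10% of their words or overlap another gene over 10% of their exon length, 20 of the 25 tested fell and 1 (Psmb10) rose, the median being -0.34 on the log2 scale.

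The members lie on 16 chromosomes (GRCm38, the assembly that mm10 names), with 6 on chromosome 11 and 4 on chromosome 14. Psmb8 and Psmb9 are 9956 bases apart in the MHC on chromosome 17, where the starts of Psmb9 and Tap1 are 226 bases from each other on opposite strands. Psmb10, the remaining immunoproteasome gene, is on chromosome 8. Promoters from 250 bases before to 50 bases after the start were taken from RefSeq (GRCm38.p6) for 32 of the 39 genes, 34 promoters in all, and searched on both strands. The core of the antioxidant response element, TGACNNNGC, bound by NFE2L1 and NFE2L2, was found in 5 of the 34 (14.7%), against 12.4% of all 32851 promoters, in Psmb5, Psmb6, Psmc6, Psmd9 and Psmd12. CCAAT, the box bound by NF-Y, was found in 13 (38.2%), against 37.4% of all. Both shares are near those of all promoters. The core of the gamma-activated site, TTCNNNGAA, was found in the promoters of Psmb8 and Psmd2, or 5.88% against 8.30% of all. The core of the interferon-stimulated response element, GAAANNGAA, was found in 5 (14.7%), against 8.56% of all, and in no window of the immunoproteasome genes. The RefSeq starts of Psmb8 (34198195) and Psmb9 (34187330, minus strand) lie inside the genes as GENCODE M21 gives them. Those genes begin at 34197721 and, on the minus strand, at 34187764, and the bases before these outer starts were not searched. Sequences in these windows can match more than 1 of the motifs, and a match is a description of the letters alone.

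The promoter stretches below are those of 2 constitutive catalytic genes, the 2 inducible genes of the MHC, and the chaperones with the highest and lowest fold change. They are shown because they set genes with lower values beside genes that rose and hold one of the motifs searched. Each is on the strand of its gene, 5′ to 3′, with motif matches in capitals (ATTGG is CCAAT on the other strand), and lies before the RefSeq start. The stretches of Psmb8, Psmb9 and Psmd9 nonetheless lie inside the genes as GENCODE M21 gives them. For Psmd9 the RefSeq start is 123228190, while the GENCODE gene begins at 123169413. The stretches of Psmb8 and Psmb9 lie under annotated exons and are limited to 30 bases.
Psmb5 (chymotrypsin-like; chr14:54618023-54618095, minus strand): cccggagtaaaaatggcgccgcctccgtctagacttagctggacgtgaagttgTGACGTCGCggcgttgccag
Psmb6 (caspase-like; chr11:70525257-70525356, plus strand): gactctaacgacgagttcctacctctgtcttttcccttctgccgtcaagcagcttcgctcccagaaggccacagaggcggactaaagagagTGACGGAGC
Psmb8 (inducible; chr17:34198095-34198124, plus strand): ctgTTCCCAGAAgatgcccccccccgtccc
Psmb9 (inducible; chr17:34187331-34187360, minus strand): cctgcaccgcgcgcagccgctgATTGGaaa
Psmd9 (chaperone; chr5:123228090-123228189, plus strand): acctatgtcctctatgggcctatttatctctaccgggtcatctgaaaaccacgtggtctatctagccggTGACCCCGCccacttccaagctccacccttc
Psmd10 (chaperone; chrX:140956729-140956811, minus strand): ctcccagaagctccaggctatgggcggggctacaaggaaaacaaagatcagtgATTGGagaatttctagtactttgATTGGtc
The antioxidant response element core thus stands before the RefSeq starts of Psmb6, which fell with TMM scaling, and of Psmd9, which rose. It also stands before that of Psmb5, whose lower level was called in only some settings. The core was found as well in Psmc6 and Psmd12, whose stretches are not printed. These genes changed by -0.36 and -0.34 on the log2 scale and were lower in all 13 alternative settings. The first of the capitals lies 47, 9 and 31 bases before the start in Psmb5, Psmb6 and Psmd9. In Psmb8 the gamma-activated site core begins 97 bases before the start.

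The genes around the proteasome moved in several directions. Of the 79 tested over all lists 35 (44.3%) rose and 20 (25.3%) fell, beside 33.2% and 32.0% of all genes. With library totals 40 (50.6%) rose and 12 (15.2%) fell, beside 42.1% and 22.6%. Among the activators that can cap the core in place of the 19S particle and its inhibitor, 3 rose and 2 fell. Psme1, which with Psme2 forms the interferon-inducible PA28 cap, rose by 0.35 on the log2 scale (92.5 and 96.0 CPM in Ogt iKO, 74.1 and 73.4 in control). Psme2 rose by 0.30, but was not called without Ogt iKO replicate 1 or without control replicate 2 (adjusted p = 0.0692 and 0.216). Psme4, the PA200 cap, rose by 0.37 (679 and 723 CPM against 525 and 561). Psme3, the nuclear PA28 gamma cap, fell by 0.36 (303 and 302 CPM against 399 and 376), and the inhibitor Psmf1 fell by 0.30, a call that library totals removed. Of the 7 other assembly factors measured, 4 fell and 1 rose. Psmg2 and Psmg3, chaperones that build the alpha ring, fell by 0.81 and 0.76, with Psmg2 at 35.1 and 38.8 CPM against 65.0 and 64.2 CPM in control. Akirin2, which guides proteasomes into the nucleus, fell by 0.45. Ecpas, a scaffold that binds 26S proteasomes, rose by 0.98, from 102 and 93.3 CPM in control to 200 and 185 CPM. Pomp, which guides assembly of the beta ring, was at 183 and 193 CPM in Ogt iKO and 201 and 184 CPM in control, a log2 fold change of -0.04 (adjusted p = 0.63).

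Of 8 other subunits and partners, Sem1, a small lid subunit, rose by 0.28, the deubiquitinase Uchl5 rose by 0.24 and the deubiquitinase Usp14 fell by 0.29, while 5 did not pass, among them the ubiquitin receptor Adrm1 (-0.21, adjusted p = 0.151). Of 11 genes for shuttles and substrate delivery, 6 fell and 2 rose, the fall of Ubqln1 not being called without control replicate 1. Rad23b, which carries ubiquitinated proteins to the proteasome, fell by 0.42, and Ubqln2 and Ubqln4, shuttles of the ubiquilin family, fell by 0.39 and 0.37. Zfand2a, a stress-induced proteasome partner, rose by 0.56. Of the 6 genes for ubiquitin and its activating enzymes, 2 rose, 1 fell and 3 did not pass, with Uba6 up by 0.44 and Uba1 down at -0.21 on the log2 scale. Rps27a, a ubiquitin fusion gene, was at 4.09 and 4.06 CPM against 5.56 and 5.80 CPM (log2 fold change -0.48, adjusted p = 0.0504). The rise of Uchl5 was not called without Ogt iKO replicate 2 or without control replicate 2 (adjusted p = 0.134 and 0.111). The falls of Usp14 and Uba1 were not called with library totals.

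Nfe2l1 itself was at 301 and 310 CPM in Ogt iKO and at 309 and 317 CPM in control, a log2 fold change of -0.03 (adjusted p = 0.598). Of the 19 regulators of proteasome genes, 7 rose (36.8%), 4 fell (21.1%) and 8 did not pass, beside 33.2% higher and 32.0% lower among all genes. Of the 4 falls, those of Nfyc and Stat3 were not called with library totals, and that of Nfyc also not in 3 of the 4 fits without a library. The rises of Ngly1 and Keap1 were not called without control replicate 1. Nfyb, a subunit of the CCAAT-binding factor NF-Y, was at 94.2 and 98.5 CPM in Ogt iKO and at 170.5 and 166 CPM in control, a change of -0.81 on the log2 scale (SE 0.059, adjusted p = 1.08e-05). Tcf12, a helix-loop-helix factor, rose by 0.65 on the log2 scale. Fbxw7 and Syvn1, ubiquitin ligases that target NFE2L1 for degradation, rose by 0.63 and 0.65. The median over the list was 0.06 on the log2 scale, near that of all genes.

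Of the 8 lists around the proteasome, antigen processing had the largest share of rising genes, 12 of 13 (92.3%, beside 33.2% of all genes). The median over all 13 was 1.18 on the log2 scale. Tapbp, which loads MHC class I, was at 159 and 152 CPM in Ogt iKO and at 45.7 and 46.0 CPM in control, a change of 1.76 on the log2 scale (SE 0.064, adjusted p = 5.43e-07). Erap1, which trims peptides, rose by 2.01, Tap1, the peptide transporter, by 1.74, and the class I heavy chain H2-K1 by 1.38. The list includes Psme1 and Psme2 of the PA28 cap. Canx, a general chaperone of the endoplasmic reticulum, was the 1 gene that fell (-0.37). Of the 14 genes of the interferon axis, 8 rose (57.1%) and 2 fell (14.3%), with a median of 0.61. The rise of Irf8 was not called without Ogt iKO replicate 1 or without control replicate 2 (adjusted p = 0.148 and 0.158). Irf1, an activator of class I and immunoproteasome genes, was at 121 and 118 CPM in Ogt iKO and at 57.8 and 59.5 CPM in control, a change of 1.03 on the log2 scale (SE 0.064, adjusted p = 5.18e-06). Jak2, a kinase of the interferon gamma receptor, rose by 1.89, its inhibitor Socs1 by 1.49 and Jak1 by 0.74. Among the genes that fell was the interferon gamma receptor chain Ifngr1, at 9.18 and 5.93 CPM against 13.8 and 12 CPM in control (log2 fold change -0.77, adjusted p = 0.0118, or 0.0602 without control replicate 1). Irf9 fell by 0.32, a call lost with library totals, without control replicate 2 and without Ogt iKO replicate 1.

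**Figure D4:**
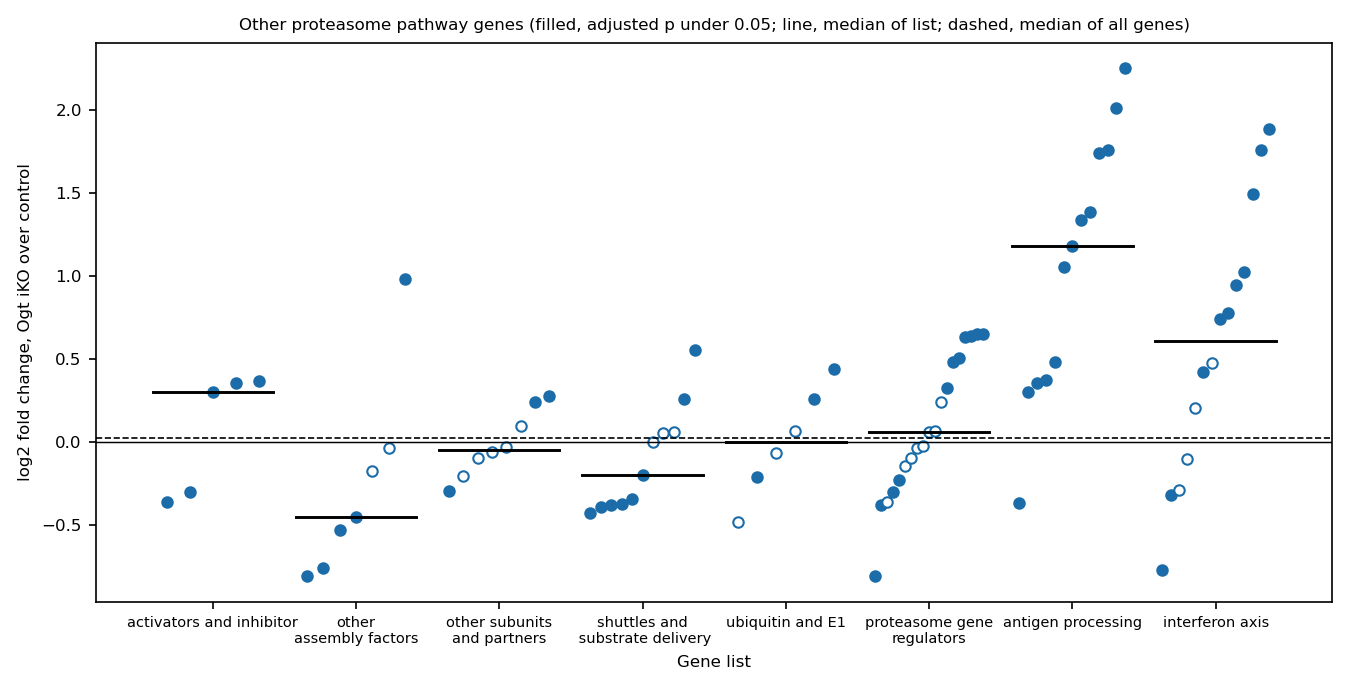
Log2 fold change, Ogt iKO against control, of each gene in 8 lists around the proteasome (filled points, adjusted p under 0.05; open points, not called; horizontal lines, list medians). The antigen processing list lies highest, with a median of 1.18, and the other assembly factors lowest, with a median of -0.45.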

How the data were processed

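RNA of 2 Ogt iKO and 2 control mESC samples was measured by stranded mRNA sequencing, per the labels' protocols. The authors deposited raw counts per gene, 1 table per library, without normalization. STAR, Picard and the mm10 build are named in the submitters' processing notes, while versions, the annotation, the strand counted and the handling of multi-mapped reads are not given in the sources used here. Groups came from the titles. The counts were tested in R 4.3.3 by the quasi-likelihood method of edgeR 4.0.16 (TMM, filterByExpr, two-sided, no covariate, both groups in 1 fit), with Benjamini-Hochberg adjustment over 14525 genes and a threshold of 0.05. The SE is the log2 fold change divided by the root of the F statistic. CPM uses TMM-scaled library sizes, and per-kilobase values the union exon length of GENCODE M21. Shared sequence was counted as 50-base words of the longest coding transcript, on both strands. Alternatives were RLE, upper-quartile and library-total scaling, DESeq2 1.42.0, no filter, a filter of 1 CPM in 2 libraries, robust spread, a threshold of 0.01, a replicate block and each library left out. On simulated counts with few genes changed, 20.4% of genes changed 1.25-fold, 64% of those changed 1.5-fold and 78% of those changed 2-fold were recovered. In the data 32.0% of genes were called lower and 33.2% higher, which makes the adjusted threshold less strict. The simulated rates therefore do not say how many changes were missed here. Common variation between replicates was 7.82% (coefficient of variation). Replicates of a group differed by more than counting error (chi-square per degree of freedom 5.97 in Ogt iKO and 3.66 in control).

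Members and gene lists were chosen with earlier results of these data known. Named per library were the 2 highest and 2 lowest members of each group, the immunoproteasome genes and their partners, and of the other lists up to 4 genes with the smallest adjusted p, plus Nfe2l1, Ogt and Pomp. Some values that this rule covers are not reported here. Marker genes, Psma6, Psma8, Psmb2, Psmd14, Psme2, Canx, Ifngr1, Irf8, Irf9, Nfyc, Stat3, Ngly1, Keap1 and Ubqln1 were named after these had been seen, and the interferon motifs and the ratios of raw counts were added then.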

Additional observations from a re-analysis of the deposited data

How the results depend on the processing

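With libraries scaled by totals alone, 17 members were lower and 8 higher, 12 of the other pathway genes were lower (20 with TMM), and the medians of log2 fold change were -0.19 for the alpha ring, -0.041 for the beta ring, -0.18 for the ATPases, -0.175 for the base, -0.18 for the lid and, reversed in sign, 0.15 for the chaperones. Psmd11 became 0.0083. These shifts follow from the change of scale, which moved the median of all genes from 0.02 to 0.19. Upper-quartile scaling gave a median of -0.30 for the base and 24 lower members, losing Psma4, Psmb5, Psmd2 and Psmd11. Among members without shared sequence or overlap 1 was higher. With 1 library left out at a time the median ran from 1.05 to 1.65 for the immunoproteasome genes, the extremes being without each control library, and from -0.395 to -0.27 for the base. Without control replicate 1 the count of lower members dropped to 21, losing Psma4, Psma8, Psmb4, Psmb5, Psmd2, Psmd3 and Psmd11, and the cause was not tested. Of the 32 called members, 21 kept direction and call in all 13 alternatives. The titles number the libraries of both groups, but deviations of same-numbered libraries correlated by only 0.086, so the numbers were not taken as pairs. With the replicate block 27 members were lower, Psmd11 being lost. Depth limits Psmb9 and Psmb11, and 2 libraries per group limit all small changes.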
